A study of Mus musculus with 25 samples.

Results

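Heat shock proteins and DNAJ cochaperones were followed at the RNA level in mouse macrophages under 9 conditions. The members were all gene symbols that begin with Hspa, Hspb, Hspd, Hspe, Hsph or Hsp90, or with Dnaja, Dnajb or Dnajc and a number, without Hspbap1 and Hspbp1. The rule used names only and gave 72 of the 24411 symbols in the count files, 27 of them Hsp and 45 Dnaj symbols. They comprised 11 HSP70, 3 HSP110, 3 HSP90, 2 chaperonin and 8 small HSP symbols, with 4 DNAJA, 13 DNAJB and 28 DNAJC symbols.

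The study asked how macrophage genes respond to polarizing signals. BMDMs were C57BL/6 bone marrow cells that 4 days of M-CSF (25 ng/ml, in DMEM) had turned into macrophages. They were left as controls, given LPS (100 ng/ml) for 1, 4, 12 or 24 h after IFN-γ priming (100 U/ml; IFN-LPS), or given 10 ng/ml IL-4 or 10 ng/ml IL-13 for 12 h, with 3 samples in each of these 7 groups. RAW264.7 cells, an immortal mouse macrophage line grown in RPMI, were left as controls or given 100 ng/ml LPS for 4 h without IFN-γ, with 2 samples in each group. Both controls carried a 4 h label, so the 12 h and 24 h groups had no control of the same culture time, and the length of IFN-γ priming was not given in the sources used here. The study's methods describe the 3 BMDM samples of a group as biological replicates with separately prepared RNA; for the RAW264.7 pairs, and for whether each BMDM sample was another animal, nothing is given in the sources used here, so p-values measure only the spread between these samples.

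Chaperones of the HSP70 class hold unfolded protein stretches in cycles of ATP hydrolysis. DNAJ proteins carry a J domain that starts hydrolysis by HSP70, and some of them also deliver substrates to it. HSP110 proteins exchange the nucleotide, and HSP90 finishes the folding of kinases and receptors. The endoplasmic reticulum (ER) and the mitochondria each have their own HSP70 and DNAJ proteins, and macrophages that secrete cytokines depend on the ER set.

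RNA-seq gave 2378639 to 3357300 sense-strand counts on genes per sample. The ribosomal precursor Rn45s took 20.1% to 39.8% of them and was left out, which left 1502618 to 2532496 counts. Members held 6195 to 27918 counts per sample. Levels are given below as CPM, counts per 1000000 without Rn45s after TMM scaling, with the SD over replicates; CPM are not corrected for gene length. All 7 macrophage markers were detected in BMDMs, whereas Mertk had no count in RAW264.7 cells. T cell and erythroid markers were at 0 in every sample, B cell markers summed to at most 0.577 CPM, dendritic cell markers to at most 4.35 CPM, and 4 stromal markers summed to 52.4 to 109 CPM in BMDMs and to 0 in RAW264.7 cells. The 5 neutrophil markers in the files summed to 8.68 to 17.1 CPM in control BMDMs, 21.9 to 45.1 CPM with IFN-LPS and at most 1.39 CPM in RAW264.7 cells, with Mpo at 0 in each BMDM group but IL-4. Markers of cycling cells also moved with the conditions: the 4 summed to 74.8 to 92.3 CPM in control BMDMs, 212 to 240.1 CPM at 1 h of IFN-LPS, 151 to 173 CPM at 4 h, 41.8 to 75.1 CPM at 12 h, 42.0 to 56.7 CPM at 24 h, 51.3 to 62.3 CPM with the 2 cytokines, and 541 to 690.4 CPM in RAW264.7 cells. At 1 and 4 h the higher sums came mostly from Mki67, with group means of 30.7 CPM in controls, 165 CPM at 1 h and 134.7 CPM at 4 h. At 4 h Top2a (10.1 against 20.1 CPM), Ccnb1 (5.67 against 10.2 CPM) and Cdk1 (13.9 against 23.3 CPM) were below the controls. The part of these cells in the results below was not tested. The 12 libraries of control BMDMs and of IFN-LPS at 1, 4 and 12 h had 0.0386% to 0.122% of Rn45s counts on the antisense strand and the other 9 BMDM libraries 0.00603% to 0.0214%, so a difference in library making cannot be told apart from 24 h of IFN-LPS, IL-4 or IL-13.

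Of the 72 members, 52 had enough counts to be tested in at least 1 comparison and 46 in every fit. Hspa1a and Hspa1b passed the count filter only through the 12 h IFN-LPS samples, where they were high. In the same way Dnajc28 passed only through the controls in the time course, Dnajc28 and Hspa2 only through control BMDMs in the comparison with RAW264.7 cells, and Dnajb5 only through the LPS samples in RAW264.7 cells. A gene kept only for its high group was chosen for its level there, so the calls of these members in those comparisons are descriptions, given with no p. Hspa2 (through 1 h) and Hspb11 (through 24 h) also passed the time course in this way and were called at no time. The 20 members tested in no fit reached a highest group mean of 4.83 CPM and included Hspb1, 6 other small HSP symbols and Dnaja4; 5 of them had no count in any sample. Hspb1, a small heat shock protein that binds unfolded proteins without ATP, was at 4.83 ± 2.44 CPM in control BMDMs and had no count in RAW264.7 cells.

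Summed over the members, the level was 3368 ± 61.5 CPM in control BMDMs (n = 3), 5876 ± 81.2 at 1 h of IFN-LPS, 6284 ± 201 at 4 h, 7474 ± 401 at 12 h and 5784 ± 167 at 24 h. On the TMM scale these are 1.74, 1.87, 2.22 and 1.72 times the control mean, and every IFN-LPS sample lay above every control. The ratios depend on this scaling, most of all at 4 h. TMM factors were 1.09 to 1.11 in the controls and 0.717 to 0.751 at 4 h. Every IFN-LPS sample had a lower factor than every control, so scaling by total counts would make all these ratios smaller. With IL-4 the sum was 3799 ± 145 CPM and with IL-13 it was 3827 ± 60.1 CPM. RAW264.7 cells stood at 7757 ± 239 CPM without stimulus and at 9621 ± 77.3 CPM after LPS (n = 2 each). In bulk samples, a lower level can mean fewer cells of a kind or less RNA per cell, and these cannot be told apart.

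Per kilobase of exon, Hspa8 was the highest member in every group, from 347 CPM per kb in control BMDMs to 1196 CPM per kb at 12 h of IFN-LPS. The order below it changed. Hsp90ab1 came next in control BMDMs (138.5 CPM per kb) ahead of Hspa5 (101 CPM per kb), whereas at 1 h Hspa5 (475 CPM per kb) stood above Hsp90ab1 (169 CPM per kb). Hspa8 alone made up 24.7% of the members' CPM in control BMDMs and 38.4% at 12 h, and Hspa5 went from 7.83% to 21.1% at 1 h.

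**Figure D1:**
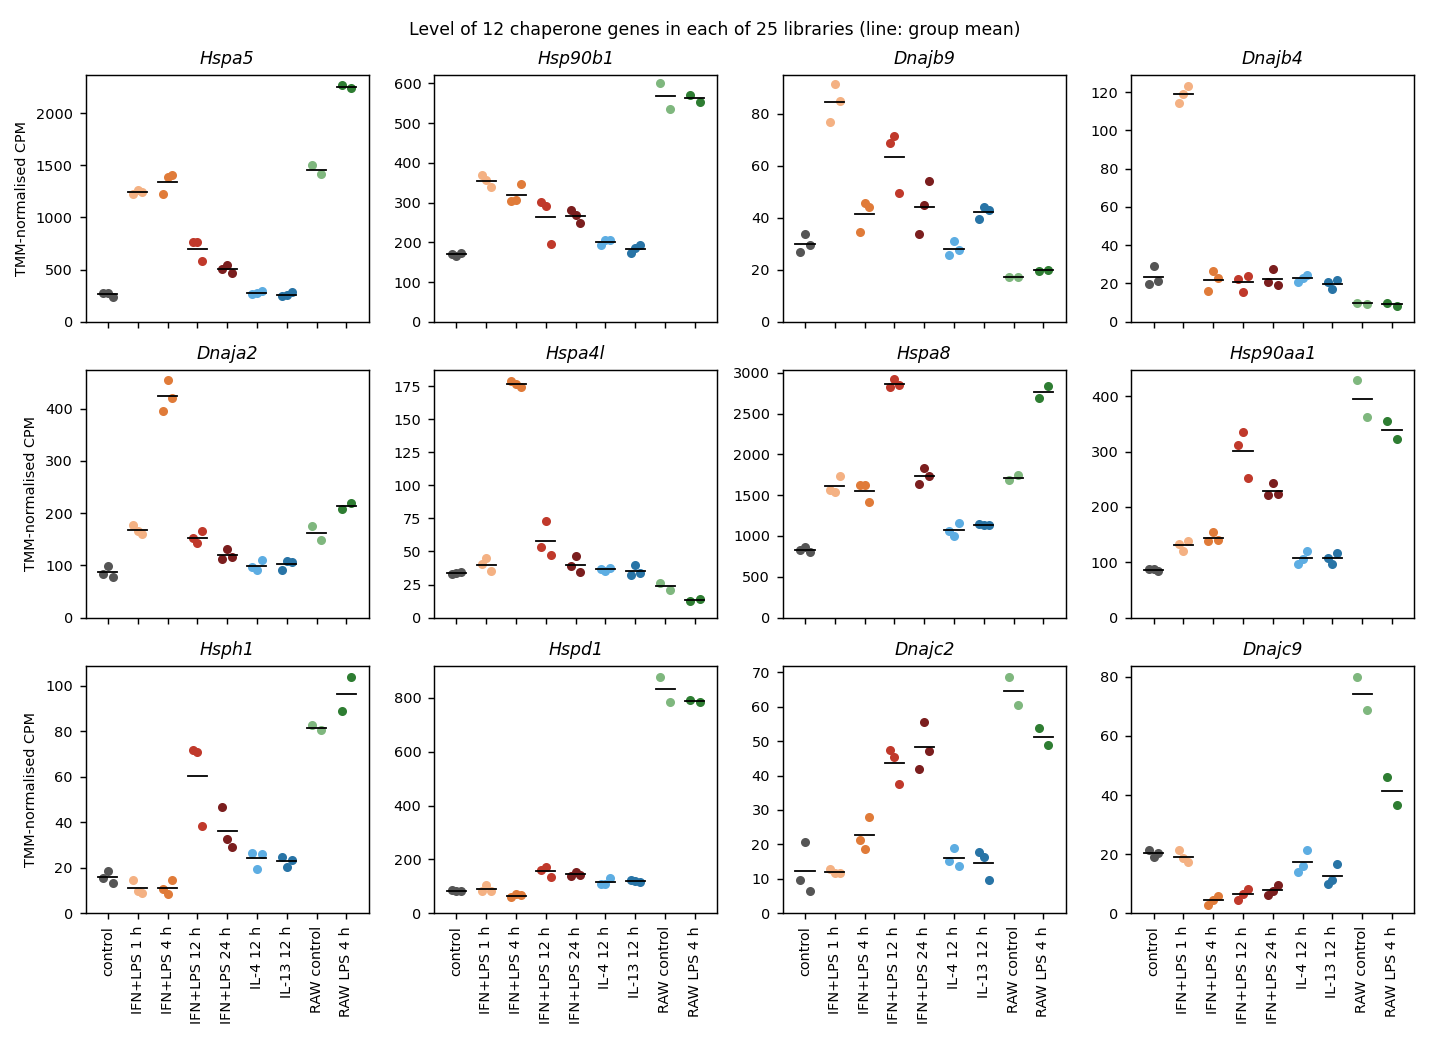
TMM-normalised CPM (linear axis from 0) of 12 members in each of the 25 samples; points are samples and bars are group means of 3 BMDM or 2 RAW264.7 samples. Hspa5 was at 242 to 275 CPM in control BMDMs and at 1220 to 1409 CPM at 1 and 4 h, Dnajb4 stood apart at 1 h only, Dnaja2 and Hspa4l at 4 h, and Hspd1 was at 786 to 877 CPM in RAW264.7 controls.

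Changes were tested with edgeR's quasi-likelihood test over all genes in a fit, and a member was called higher or lower at a Benjamini-Hochberg adjusted p of at most 0.01. Against the control, IFN-LPS raised 16 and lowered 2 of 52 tested members at 1 h, where 14.7% of all 9568 genes tested were called higher and 11.3% lower. At 4 h, 14 were higher and 8 lower, beside 26.0% and 25.6% of all genes. At 12 h, 21 were higher and 4 lower (23.9% and 23.4% of all genes), and at 24 h 19 were higher and 3 lower (23.9% and 21.3% of all genes). Members called higher made up 30.8%, 26.9%, 40.4% and 36.5% of the 52 tested, and the 12 h share counts Hspa1a and Hspa1b. Leaving out Hspa1a, Hspa1b and Dnajc28, 19 of 49 were higher at 12 h, and 1, 7, 3 and 2 were lower at the 4 times. The median log2 change of the tested members was 0.25 at 1 h, 0.13 at 4 h (0.14 without Hspa1a, which had no count there), 0.36 at 12 h and 0.57 at 24 h, against -0.03, -0.07, -0.03 and 0.02 for all genes.

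The split between higher and lower depended on the scaling. With scaling by total counts in place of TMM, the median of all genes shifted by -0.53 on the log2 scale at 4 h, by -0.31 at 12 h, by -0.22 at 24 h and by -0.19 at 1 h, and the calls became 8 higher and 16 lower at 4 h, 17 and 8 at 12 h, 14 and 8 at 24 h and 13 and 3 at 1 h. All changes below are relative to the TMM scale. DESeq2 gave 15 higher and 5 lower members at 4 h.

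The study's methods add a cutoff on the log2 change of 1.5 for IFN-LPS, 0.7 for either cytokine and 2 for RAW264.7 cells. With it, 3 members were higher and 1 lower at 1 h (5.04% and 2.08% of all genes), 6 and 4 at 4 h (11.4% and 11.4%), 8 and 3 at 12 h (8.87% and 8.42%), and 2 and 2 at 24 h (7.93% and 6.93%). Between 4 and 24 h, 3 were higher and 2 lower (6.90% and 6.88%), and at 12 h of IFN-LPS against IL-4, 4 and 1 (8.76% and 7.53%). No member passed it with IL-4 (2.22% and 1.64% of all genes), with IL-13 (2.98% and 2.38%), between both (0.0540% and 0.0108%) or with RAW264.7 LPS (2.39% and 0.829%). Between the unstimulated cell kinds 5 were higher and 4 lower (9.85% and 12.7%), and in the test of unequal 4 h responses 0 and 2 (3.68% and 5.04%). All counts below are without this cutoff.

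**Figure D2:**
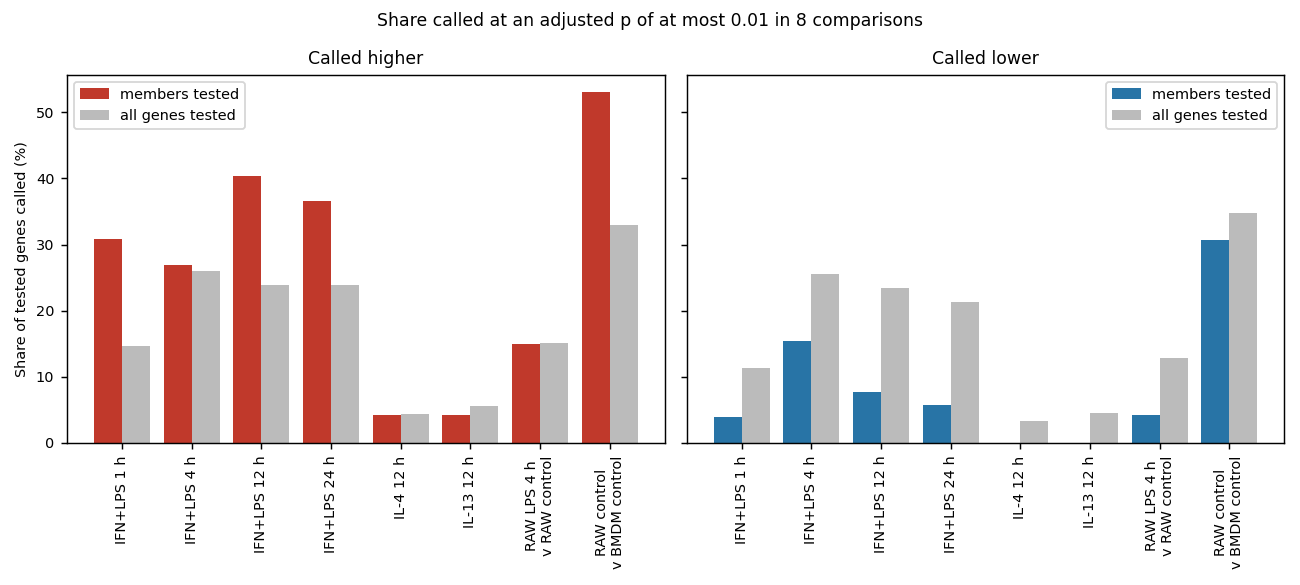
Share (%) of the tested members (colour) and of all genes tested (grey) called higher (left) and lower (right) at an adjusted p of at most 0.01 in 8 comparisons. Members called higher were 30.8% at 1 h and 40.4% at 12 h of IFN-LPS, beside 14.7% and 23.9% of all genes. With IL-4 they were 4.17%, beside 4.38%, and with RAW264.7 LPS 14.9%, beside 15.1%. The 12 h share counts Hspa1a and Hspa1b and the RAW264.7 LPS share Dnajb5, which passed the filter only through the stimulated group.

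The members called higher at each of the 4 times were 8: Hspa5, Hsp90b1 and Dnajb11 of the ER, and Hspa8, Hsp90aa1, Dnaja1, Dnaja2 and Dnajb6 outside it. Only Dnajc28 was called lower at all 4. In all, 28 members were called higher at 1 time or more and 9 lower, with Hspd1 in both. Hspa1a and Hspa1b are among the 28 and Dnajc28 is among the 9, as descriptions only. At no time were 16 members called, among them Dnajb1, Hspa4, Hspa9 and Dnajc10. These counts over the 4 times were not made for all genes, so they cannot show a trait of the members.

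**Figure D3:**
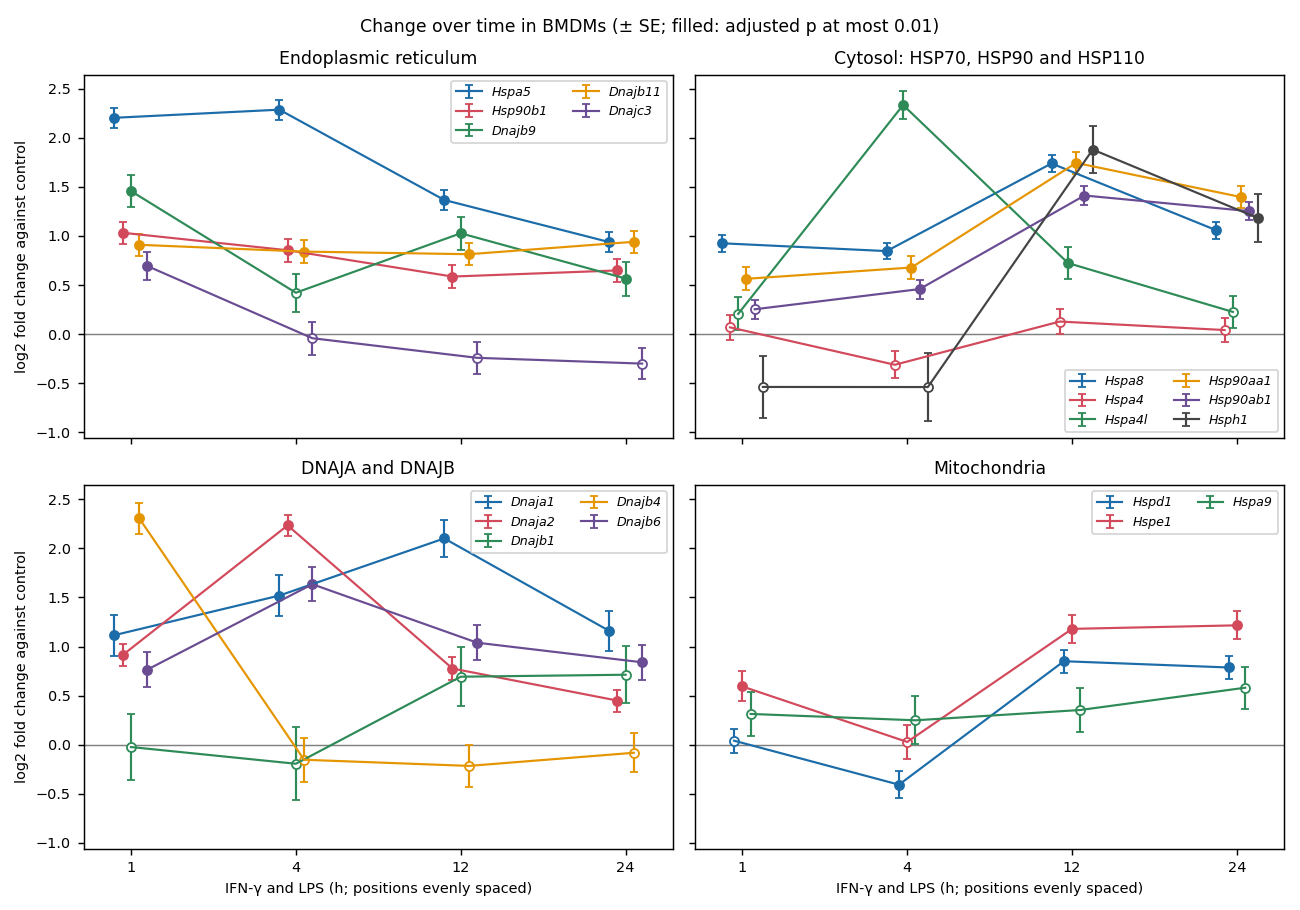
Log2 fold change against control BMDMs (± SE, edgeR) at 1, 4, 12 and 24 h of IFN-LPS, times evenly spaced, for members of the ER, the cytosol (HSP70, HSP90 and HSP110), DNAJA and DNAJB, and the mitochondria; filled symbols are called. Hspa5 stood at 2.20 and 2.29 at 1 and 4 h and at 0.94 at 24 h, whereas Hspa8, Hsp90aa1, Hsp90ab1 and Hsph1 had their largest values at 12 h.

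Of the 10 members put in the ER class here, 6 were called higher at 1 h, 3 higher and 1 lower at 4 h, 6 and 1 at 12 h, and 5 and 1 at 24 h. This class may not hold every member found at the ER. Dnajc16 and Dnajc18 were left outside it, and both were called lower at 4 h, Dnajc18 also at 12 h. Hspa5, Hsp90b1 and Dnajc3 share a promoter sequence that the rule did not use, the ER stress response element, and these stretches are printed because all 3 genes were called higher at 1 h. The element (CCAAT and CCACG with 9 bases between them) was searched on both strands of RefSeq promoters (250 bases before to 50 after each start site, GRCm38.p6, same build as the mm10 files), which were on hand for 58 of the 72 members. It was found in these 3 genes alone, 5.17% of the 58 members, and in 0.137% of all 27025 genes with a promoter. Capitals mark the element in the stretches below, read 5′ to 3′ on the strand of the gene; Hsp90b1 holds it on each strand.
Hspa5, chr2:34771985-34772083, plus strand: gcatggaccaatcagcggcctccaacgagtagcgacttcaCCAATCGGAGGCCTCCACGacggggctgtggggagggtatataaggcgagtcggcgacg
Hsp90b1, chr10:86705493-86705694, minus strand: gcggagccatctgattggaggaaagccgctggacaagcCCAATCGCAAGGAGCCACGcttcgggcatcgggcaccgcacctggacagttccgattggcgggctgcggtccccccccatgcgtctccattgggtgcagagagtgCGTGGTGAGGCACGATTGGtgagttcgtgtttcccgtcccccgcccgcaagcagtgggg
Dnajc3, chr14:118937787-118937885, plus strand: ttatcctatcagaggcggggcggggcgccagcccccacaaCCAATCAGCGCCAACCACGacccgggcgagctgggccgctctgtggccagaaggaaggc

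Hspa5 (chr2:34771970-34777547, GRCm38), which encodes BiP, the HSP70 of the ER, was at 275, 275 and 242 CPM in the 3 control samples. It was at 1221, 1263 and 1243 CPM at 1 h and at 1220.4, 1384 and 1409 CPM at 4 h. Later samples had 762, 764 and 579.8 CPM at 12 h and 509, 546 and 467 CPM at 24 h. The controls overlapped with no IFN-LPS group, and the 24 h samples lay below all other IFN-LPS samples. The log2 change was 2.20 (SE 0.10, adjusted p = 6.4e-24) at 1 h, a 4.60-fold rise, and 2.29 (SE 0.10, adjusted p = 6.5e-25) at 4 h. By 24 h it was 0.94 (SE 0.10, adjusted p = 2.7e-11), and 24 h was lower than 4 h by a log2 change of -1.35 (SE 0.10, adjusted p = 1.1e-16).

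Hsp90b1 (GRP94, the HSP90 of the ER) went from 170.0, 166 and 173 CPM in the controls to 369, 357 and 339 CPM at 1 h, a change of 1.03 (SE 0.11, adjusted p = 3e-10). It remained called higher at 4, 12 and 24 h, with 319 ± 25.1, 263 ± 58.7 and 267 ± 16.5 CPM; under total-count scaling the 4 h change was 0.32 (adjusted p = 0.02) and the 12 h change 0.28 (adjusted p = 0.048). Dnajc3 (p58IPK, an ER cochaperone that also restrains the kinase PERK) was called at 1 h alone. Its controls had 39.7, 46.1 and 52.9 CPM and its 1 h samples 76.7, 86.9 and 67.3 CPM, a change of 0.69 (SE 0.15, adjusted p = 0.00014). At 4 h it was at 44.3, 44.3 and 51.7 CPM, overlapping the controls.

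Dnajb9 (ERdj4, a BiP cofactor of ER-associated degradation) was at 26.8, 33.6 and 29.4 CPM in controls, 76.7, 91.4 and 85.0 CPM at 1 h and 34.5, 45.8 and 44.3 CPM at 4 h. The 1 h samples lay above all others of the time course. Its change was 1.46 (SE 0.16, adjusted p = 2e-10) at 1 h, 0.42 (SE 0.19, adjusted p = 0.055) at 4 h and 1.03 (SE 0.17, adjusted p = 1.1e-06) at 12 h. The call at 24 h, 0.57 (SE 0.17, adjusted p = 0.0048), was lost on leaving out control 1 or 3 or 24 h sample 2 or 3 (0.40 to 0.57, adjusted p = 0.011 to 0.082) and with DESeq2 (adjusted p = 0.019), and was 0.34 (adjusted p = 0.094) under total-count scaling. Dnajb11 (ERdj3) held a plateau, from 88.0, 69.4 and 75.9 CPM in controls to 149.5 ± 9.79, 145 ± 2.36, 141 ± 5.25 and 149.8 ± 9.83 CPM at 1, 4, 12 and 24 h. Its changes ran from 0.81 to 0.94, all 4 called, although the 4 h change was 0.31 (adjusted p = 0.015) under total-count scaling.

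Dnajc1 (ERdj1, a membrane J protein at ribosomes) had a different course. It was at 45.6, 51.0 and 52.9 CPM in controls and 39.7, 45.0 and 45.5 CPM at 1 h, and reached 175, 150.2 and 182 CPM at 12 h and 214, 243 and 221 CPM at 24 h. All late samples lay above all early ones, with a change of 2.17 (SE 0.12, adjusted p = 4.1e-21) at 24 h. Hspa13, a microsomal HSP70, was higher at 1 h, 0.70 (SE 0.18, adjusted p = 0.0014), and at 12 h, 0.68 (SE 0.18, adjusted p = 0.0011), with 20.6 ± 1.38 CPM in controls. Dnajb14, a J protein of the ER membrane, was the only one of the 10 members in the ER class that was called lower. Its controls had 39.7, 33.1 and 37.9 CPM and its 4 h samples 12.4, 14.0 and 11.5 CPM, without overlap. The change was -1.60 (SE 0.23, adjusted p = 7.6e-08) and held at 12 h (-1.54) and 24 h (-1.50). Dnajc10 (ERdj5, a disulfide reductase; 110.1 ± 2.87 CPM in controls) and Dnajb12 passed the test at no time.

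In the cytosol, Hspa8, the constitutive HSP70 (chr9:40800984-40810087), was at 833, 859 and 801 CPM in controls, 1567, 1542 and 1732 CPM at 1 h and 1619.8, 1626 and 1414 CPM at 4 h. It reached 2822, 2924 and 2847 CPM at 12 h and stood at 1634, 1838 and 1737 CPM at 24 h. The 12 h samples lay above all others of the time course, at 1.74 (SE 0.09, adjusted p = 4.1e-23), and 24 h against 4 h did not pass, 0.21 (SE 0.08, adjusted p = 0.029). Of the windows of 101 bases in the Hspa8 transcript, 62.6% also occur in other genes, and only uniquely mapped reads were counted, so its level is uncertain. The same share was 47.3% for Hsp90aa1, 30.9% for Dnajb6, 26.7% for Hspd1, 20.3% for Hspe1 and 14.8% for Dnaja1.

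Hspa1a and Hspa1b, the heat-inducible HSP70 genes that lie side by side (chr17:34969190-34972156 and chr17:34956436-34959238), had their highest levels at 12 h. Hspa1a was at 1.07, 0 and 1.07 CPM in controls, had no count at 4 h (a limit of 0.825 CPM from 3 counts over the group, counting error only) and was at 24.3, 22.8 and 14.1 CPM at 12 h. Hspa1b was at 0.536, 0.542 and 1.07 CPM in controls and 19.6, 17.6 and 12.4 CPM at 12 h. From 4 counts over the controls to 101 counts over the 12 h group, the ratio for Hspa1a was 28.4 (95% counting interval 10.7 to 106, exact), and for Hspa1b, with 4 and 82 counts, it was 23.0 (8.66 to 86.5). Both are among the 21 members called at 12 h, as a description only. At 24 h Hspa1a was at 2.93, 1.99 and 2.95 CPM and Hspa1b at 3.42, 2.98 and 1.68 CPM, and neither was called against control at 1, 4 or 24 h. Of their windows, 48.4% for Hspa1a and 49.7% for Hspa1b occur in other genes, so reads could not be divided between them with certainty.

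Hspa14, an HSP70 that works at the ribosome with Dnajc2, was higher at 1 h, from 17.7, 21.7 and 17.1 to 32.5, 36.0 and 31.9 CPM, 0.79 (SE 0.18, adjusted p = 0.00052). Dnajc2 itself followed another course, with 9.66, 20.6 and 6.41 CPM in controls, 12.9, 11.6 and 11.6 CPM at 1 h and 42.0, 55.7 and 47.2 CPM at 24 h. It was called at 12 h, 1.78 (SE 0.23, adjusted p = 1.1e-08), and at 24 h, 1.97 (SE 0.22, adjusted p = 2.8e-10).

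The HSP110 members diverged. Hspa4l (chr3:40744495-40796103) was at 32.7, 33.6 and 34.7 CPM in controls, at 40.3, 45.0 and 34.9 CPM at 1 h and at 179, 177 and 175 CPM at 4 h. It was back to 39.1, 46.2 and 34.1 CPM at 24 h, so that the 4 h samples stood alone, with a change of 2.33 (SE 0.14, adjusted p = 1.3e-19), a 5.04-fold rise, and of 0.72 (SE 0.16, adjusted p = 0.00013) at 12 h. Hsph1 had 15.6, 18.4 and 13.4 CPM in controls and 10.6, 8.55 and 14.8 CPM at 4 h, overlapping, then 71.6, 70.9 and 38.3 CPM at 12 h and 46.9, 32.8 and 29.1 CPM at 24 h. Its change was 1.88 (SE 0.24, adjusted p = 3.4e-08) at 12 h and 1.18 (SE 0.25, adjusted p = 0.00014) at 24 h. Hspa4, the third HSP110, was at 75.1 ± 7.97 CPM in controls and between 62.9 ± 2.33 and 84.9 ± 9.99 CPM in the stimulated groups, and passed at no time.

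All 3 HSP90 members were called higher at 4, 12 and 24 h, although at 4 h none of the 3 passed under total-count scaling and Hsp90ab1 turned to -0.071 there. Hsp90aa1, the inducible cytosolic form, went from 88.0, 88.4 and 83.9 CPM in controls to 139, 155 and 139 CPM at 4 h, 312, 336 and 253 CPM at 12 h and 222, 243 and 223 CPM at 24 h. Its change was 1.74 (SE 0.11, adjusted p = 6.7e-19) at 12 h. Hsp90ab1, the constitutive form, went from 349, 368 and 331 to 1035, 1003 and 838 CPM at 12 h, 1.41 (SE 0.09, adjusted p = 5.2e-18), and at 1 h did not pass, 0.25 (SE 0.10, adjusted p = 0.033). The third 12 h sample was the lowest of its group for Hspa5, Hsp90b1, Hsp90aa1, Hsp90ab1, Hsph1, Hspa1a, Hspa1b, Dnaja1, Dnajb6 and Dnajb9, and without it 21 members were still higher and 4 lower at 12 h.

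Among the DNAJ proteins that serve cytosolic HSP70, the class A members Dnaja1 and Dnaja2 rose at every time and had their highest means at different times. Dnaja2 was at 82.6, 99.3 and 78.0 CPM in controls, 176, 165 and 159.8 CPM at 1 h and 395, 454 and 421 CPM at 4 h. It fell back to 153, 142 and 165 CPM at 12 h and 111, 130.3 and 115 CPM at 24 h, so that the 4 h samples lay far above all others, with a change of 2.23 (SE 0.11, adjusted p = 1.8e-23). The smallest of its calls, 0.45 (SE 0.11, adjusted p = 0.00069) at 24 h, was 0.38 (adjusted p = 0.01, just over the threshold) without control 3 and 0.22 (adjusted p = 0.077) under total-count scaling. Dnaja1 was at 20.4, 16.3 and 19.2 CPM in controls, 36.3, 59.0 and 70.6 CPM at 4 h and 83.7, 98.8 and 66.5 CPM at 12 h, with a change of 2.10 (SE 0.19, adjusted p = 3.9e-13). Dnaja3, a mitochondrial J protein, was at 6.27 ± 1.31 CPM in controls and passed at no time.

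Among class B members, 6 of 9 tested were called higher at 1 h, 3 and 1 at 4 h, 3 and 1 at 12 h and 4 and 1 at 24 h. Dnajb4, a heat-inducible cytosolic J protein (chr3:152178511-152210302), was at 19.8, 29.3 and 21.4 CPM in controls and at 114, 119 and 123 CPM at 1 h. By 4 h it was at 15.9, 26.4 and 23.0 CPM, and the 12 and 24 h groups were at 20.8 ± 4.53 and 22.4 ± 4.37 CPM. The 1 h samples lay above all other samples of the series, with a change of 2.30 (SE 0.16, adjusted p = 2.7e-17). Dnajb1, its close relative, was at 8.79 ± 2.04 CPM in controls and 8.81 ± 2.56 CPM at 1 h, with a change of -0.02 (SE 0.33, adjusted p = 0.97). Dnajb5 was higher at 1 h, 1.48 (SE 0.21, adjusted p = 8.3e-08), and at 4 h, where samples had 47.8, 42.0 and 43.5 CPM against 10.2, 13.0 and 12.3 CPM in controls, 1.84 (SE 0.21, adjusted p = 1.6e-10). Dnajb2 was called at 1 h from low counts, 2.68, 1.63 and 3.21 CPM in controls against 15.1, 7.08 and 14.7 CPM, 2.26 (SE 0.42, adjusted p = 2.6e-05).

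Dnajb6, which keeps aggregation-prone proteins soluble, was at 20.4, 21.7 and 29.9 CPM in controls, 40.3, 44.4 and 41.0 CPM at 1 h and 65.5, 86.2 and 80.4 CPM at 4 h. Its change was 1.63 (SE 0.17, adjusted p = 1.9e-11) at 4 h, and the 1 h call, 0.77 (SE 0.18, adjusted p = 0.00066), was 0.66 (adjusted p = 0.01, just over the threshold) without control 1 and 0.58 (adjusted p = 0.01, likewise) under total-count scaling. The Dnajb6 promoter is among 4 of the 58 members' promoters with a match to the heat shock element, with Hspd1, Hspe1 and Hsph1. The element (GAA, TTC and GAA, each 2 bases apart) was searched on either strand. It matched in 6.90% of the 58 members and 0.662% of all genes with a promoter. Hspd1 and Hspe1 were counted as 2 members but share their matches. Only exact matches were taken. Promoters of Hspa1a, Hspa1b, Dnajb1 and Dnajb4 were on hand and gave none, so a missing match does not show that a gene lacks the element. In Hsph1 the matches lay after the start sites. Promoters of Hspa8, Hsp90aa1, Hsp90ab1 and Hspa9 were not on hand and were not searched. The stretches of Dnajb6 and of the start region shared by Hspe1 and Hspd1 are shown because these genes had different courses; capitals mark the matches, and in the second stretch a match on each strand overlaps the other. For comparison, the kB motif GGGNNTTCC was found in 4 of the 58 members (Dnaja1, Dnajc10, Hspd1 and Hspe1; 6.90%, beside 6.58% of all genes) and the STAT motif TTCCNGGAA in 2 (Dnajc13 and Dnajc27; 3.45%, beside 1.35%).
Dnajb6, chr5:29735812-29735904, plus strand: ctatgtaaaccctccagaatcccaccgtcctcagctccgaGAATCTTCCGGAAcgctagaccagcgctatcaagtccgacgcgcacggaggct
Hspe1 and Hspd1, chr1:55088019-55088116, plus strand: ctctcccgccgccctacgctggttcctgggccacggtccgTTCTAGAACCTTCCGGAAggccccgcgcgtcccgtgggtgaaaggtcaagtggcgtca

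Of the 8 mitochondrial members, 1 was higher at 1 h, none at 4 h, 2 at 12 h and 3 at 24 h, with Hspd1 lower at 4 h. Hspd1 and Hspe1, which encode HSP60 and its lid HSP10, are read in opposite directions from neighbouring starts (chr1:55077835-55088243 and chr1:55088132-55091307), and their annotated exons overlap on opposite strands, which the counts keep apart. Hspd1 was at 86.9, 81.4 and 82.8 CPM in controls, 59.3, 69.9 and 67.3 CPM at 4 h and 161, 172 and 135 CPM at 12 h. The 12 h change was 0.85 (SE 0.12, adjusted p = 2e-08). The 4 h fall, -0.41 (SE 0.14, adjusted p = 0.0091), was lost on leaving out any of 14 of the 15 samples (-0.44 to -0.33, adjusted p = 0.01 to 0.054) and with DESeq2 (adjusted p = 0.029). Hspe1 was at 33.3, 37.4 and 37.9 CPM in controls, 58.8, 56.0 and 53.1 CPM at 1 h, 28.3, 48.9 and 36.9 CPM at 4 h and 79.1, 79.3 and 95.9 CPM at 12 h. It was called at 12 h, 1.18 (SE 0.15, adjusted p = 1.3e-09), and at 24 h, 1.22 (SE 0.14, adjusted p = 2.9e-10), and its 1 h call, 0.59 (SE 0.15, adjusted p = 0.0017), was lost without control 1 or 1 h sample 1 (0.54 and 0.57, adjusted p = 0.015 and 0.01, just over the threshold) and under total-count scaling (0.40, adjusted p = 0.028). Hspa9 (mortalin, the mitochondrial HSP70) was at 34.7 ± 5.68 CPM in controls and 52.5 ± 16.2 CPM at 24 h, 0.58 (SE 0.21, adjusted p = 0.025). Dnajc15, of the mitochondrial import motor, was higher at 24 h, 0.67 (SE 0.21, adjusted p = 0.0055), with 29.8, 38.3 and 31.6 against 25.7, 15.2 and 21.4 CPM, and Dnajc19 of the same motor passed at no time.

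The 23 tested DNAJC members, a class joined only by the J domain, went both ways, with 1 higher and 2 lower at 1 h, 3 and 6 at 4 h, 4 and 3 at 12 h and 5 and 2 at 24 h. Dnajc13, an endosomal J protein, was at 179.7, 221 and 208 CPM in controls, 366, 381 and 397 CPM at 4 h and 175, 189.9 and 185 CPM at 24 h. The 4 h samples lay above all others, with a change of 0.85 (SE 0.10, adjusted p = 1.2e-10). Dnajc8, a component of the spliceosome, was higher from 4 h on, with 41.6 ± 6.24 CPM in controls and 66.7 ± 3.72 CPM at 12 h, 0.63 (SE 0.14, adjusted p = 0.0002). Dnajc7, which joins HSP70 to HSP90, was at 40.8, 39.1 and 48.6 CPM in controls and 68.1, 70.2 and 90.6 CPM at 12 h, 0.79 (SE 0.14, adjusted p = 6.3e-06). Its 4 h call, 0.49 (SE 0.16, adjusted p = 0.0053), turned to -0.035 under total-count scaling and was lost without control 1 or 2 or 4 h sample 1 or 3 (0.44 to 0.48, adjusted p = 0.016 to 0.034).

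Dnajc9, a chaperone of histones H3 and H4 in dividing cells, was among the members that fell. It was at 21.5, 19.0 and 20.3 CPM in controls and 21.3, 18.7 and 17.2 CPM at 1 h, then at 2.66, 4.66 and 5.74 CPM at 4 h, 6.45 ± 1.81 CPM at 12 h and 7.83 ± 1.70 CPM at 24 h. All samples from 4 h on lay below all controls, with a change of -2.24 (SE 0.32, adjusted p = 5.5e-08) at 4 h. Of the cycling-cell markers, Top2a, Ccnb1 and Cdk1 were also lower at 4 h than in controls and Mki67 higher, with the means given above; their part in this change was not tested. Dnajc28 (chr16:91614254-91619026) was at 12.9, 11.9 and 10.7 CPM in controls, 1.68, 1.93 and 1.52 CPM at 1 h and 0.886, 0.777 and 0 CPM at 4 h. With 66 counts over the controls and 2 over the 4 h group, the ratio was 0.0465 (95% counting interval 0.00552 to 0.175); every control lay above every IFN-LPS sample of the time course.

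Dnajc18 fell at 4 h, from 38.6, 46.1 and 43.8 to 20.4, 14.8 and 18.9 CPM, -1.31 (SE 0.20, adjusted p = 1.9e-07), and was at 30.3, 38.8 and 35.8 CPM at 24 h. Dnajc5, the cysteine string protein of secretory vesicles, fell at 4 h, from 209.7, 188 and 222 to 139, 155 and 132 CPM, -0.59 (SE 0.11, adjusted p = 3.6e-06). The lower calls of Dnajc16 at 4 h, -0.90 (SE 0.30, adjusted p = 0.0089), and of Dnajc14 at 1 h, -0.60 (SE 0.18, adjusted p = 0.0076), were each lost when single samples were left out (9 of 15 samples for Dnajc16, with -0.92 to -0.67, and 6 of 15 for Dnajc14, with -0.65 to -0.45) and with DESeq2 (adjusted p = 0.032 and 0.035). Dnajc27 was called lower at 4 h from overlapping groups, 5.36, 8.14 and 10.7 CPM against 0.886, 5.44 and 1.64 CPM, -1.59 (SE 0.52, adjusted p = 0.0071).

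By the group of the time course with the highest mean, 17 of the 52 tested members peaked at 12 h, 11 at 4 h, 9 at 1 h, 9 at 24 h and 6 in the controls. In 16 of these all samples of that group lay above all others. At 1 h these were Dnajb4, Dnajb9, Dnajc3 and Hspa14, and at 4 h Dnaja2, Dnajb5, Dnajb6, Dnajb12, Dnajc13 and Hspa4l. At 12 h they were Hspa8, Hsp90aa1, Hspa1a and Hspa1b, at 24 h Dnajc1, and in the controls Dnajc28. Of these, Hspa1a, Hspa1b and Dnajc28 passed the filter only through that group. The same counts were not made for all genes, so they cannot show a trait of the members.

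Between 4 h and 24 h, 14 members were higher at 24 h and 7 lower, beside 21.4% and 22.4% of all genes, and under total-count scaling, which shifts the median of all genes by 0.30, 25 were higher and 6 lower. The members that were lower at 24 h were Hspa5, Hspa4l, Dnaja2, Dnajb5, Dnajb6, Dnajb12 and Dnajc13, of which Dnajb12 did not pass under total-count scaling (-0.39, adjusted p = 0.037). Hspa4l had the largest fall, -2.11 (SE 0.14, adjusted p = 2.3e-18), and Dnaja2 the next, -1.78 (SE 0.10, adjusted p = 4.5e-20). Higher at 24 h were the cytosolic Hsp90aa1, 0.72 (SE 0.11, adjusted p = 2.7e-07), Hsp90ab1, 0.79 (SE 0.09, adjusted p = 6.2e-10), and Hsph1, 1.72 (SE 0.30, adjusted p = 1.1e-05), the mitochondrial Hspd1, 1.19 (SE 0.13, adjusted p = 3.8e-11), and Hspe1, 1.19 (SE 0.15, adjusted p = 5.1e-09), and 7 DNAJC members led by Dnajc1, 1.91 (SE 0.12, adjusted p = 3.3e-18), and Dnajc2, 1.14 (SE 0.22, adjusted p = 2e-05). Hspa14 and Hspa1a made up the rest, Hspa1a from 0 counts at 4 h. Dnajc15 and Dnajc24 (a factor of diphthamide synthesis) lost their calls without 24 h sample 2 or 4 h sample 1 and with DESeq2 (adjusted p = 0.015 and 0.025), and Dnajc24 also without 24 h sample 3 or 4 h sample 3 (0.65 to 0.69 for Dnajc15 and 0.89 to 1.06 for Dnajc24).

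**Figure D4:**
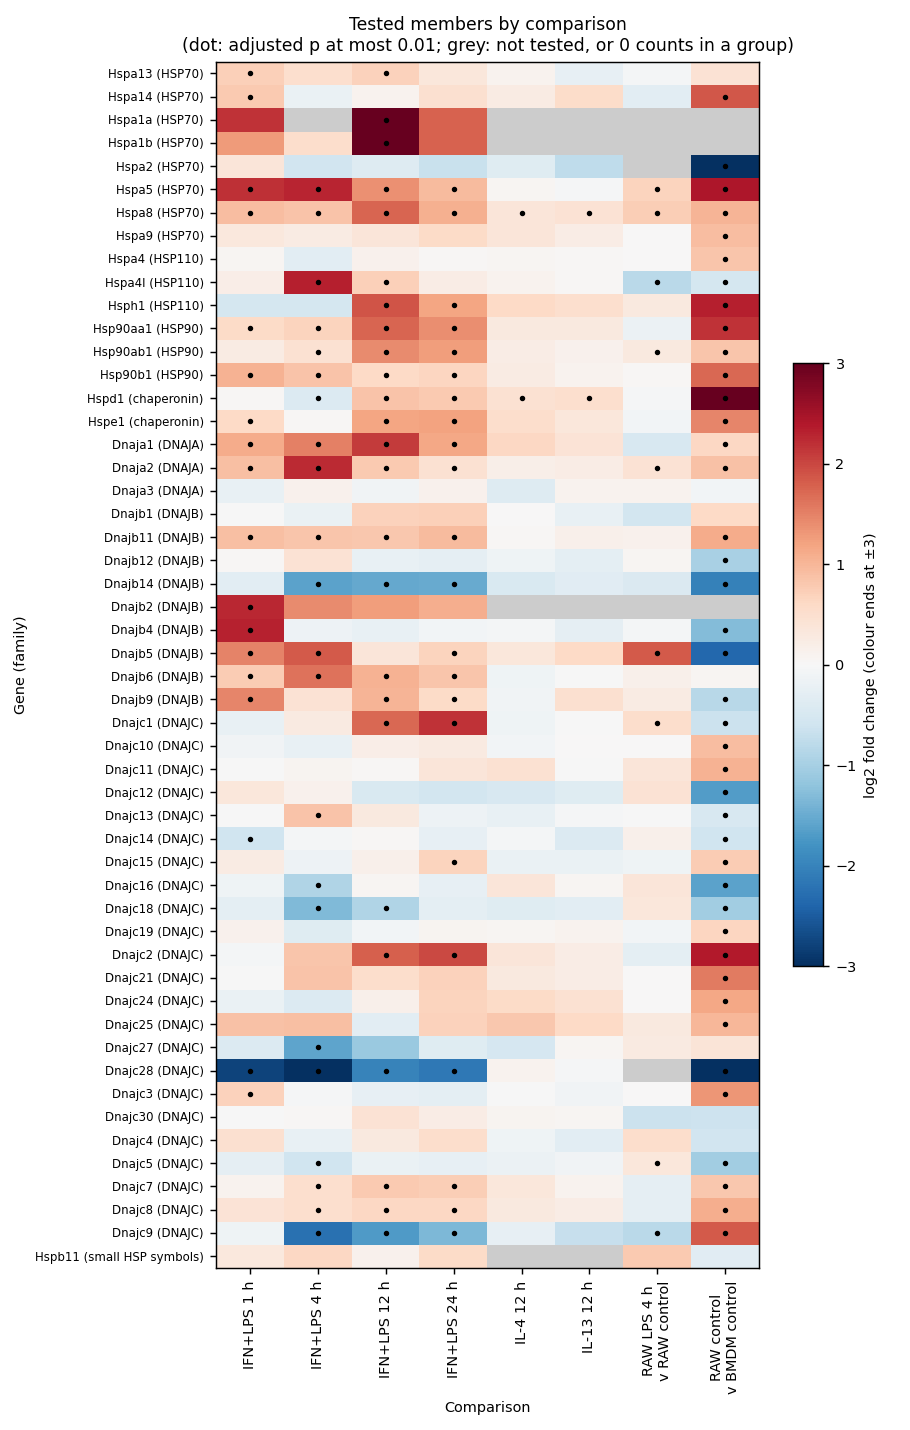
Log2 fold change (colour, ending at ±3) of the 52 tested members in 8 comparisons, ordered by family; dots are called members and grey cells were not tested or had a group with 0 counts. The IFN-LPS columns hold most calls, IL-4 and IL-13 have 2 dots each (Hspa8 and Hspd1), and RAW264.7 against BMDM controls has dots in 41 of 49 rows. Of these 41, Dnajc28 and Hspa2 passed the filter only through control BMDMs.

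Genes that work with these chaperones were read from lists fixed together with the members. Beside the list counts, 14.7%, 26.0%, 23.9% and 23.9% of all genes were called higher at 1, 4, 12 and 24 h. Called lower were 11.3%, 25.6%, 23.4% and 21.3% of all genes. Whether a list differed from these shares was not tested. Of 13 ER folding genes, 11 were higher and none lower at 1 h, with a median change of 1.15, and 8, 8 and 9 were higher at 4, 12 and 24 h, with Sec63 lower at 24 h. Manf, a secreted ER stress protein, went from 13.6 ± 2.35 to 64.3 ± 10.3 CPM at 1 h, 2.20 (SE 0.19, adjusted p = 5.9e-14), and Hyou1, the large HSP70 of the ER, from 199.5 ± 6.69 to 474 ± 27.3 CPM, 1.22 (SE 0.09, adjusted p = 2.1e-15). Of the 8 subunits of the cytosolic chaperonin TRiC, none was higher at 1 h (median 0.22), 5 at 4 h and all 8 at 12 and 24 h, where the medians were 0.69 and 0.80. Its Cct3 subunit went from 119 ± 13.5 to 329.6 ± 17.4 CPM at 12 h, 1.43 (SE 0.11, adjusted p = 1.6e-16).

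Among 14 HSP90 cochaperones, 2 were higher at 1 h, 3 higher and 3 lower at 4 h, 6 higher at 12 h, and 6 higher and 1 lower at 24 h. These counts and those of the next lists stand beside the shares of all genes given above and cannot show a trait of a list. Stip1, which passes clients from HSP70 to HSP90, went from 71.7 ± 5.33 to 256 ± 8.88 CPM at 12 h, 1.79 (SE 0.11, adjusted p = 1.5e-19). Of 12 tested HSP70 exchange and binding factors, 1 was higher at 1 h (Hyou1), 1 higher and 3 lower at 4 h, 3 and 2 at 12 h and 3 and 1 at 24 h. Bag3 was one that fell at 4 h, from 20.3 ± 2.47 to 8.51 ± 0.528 CPM, -1.30 (SE 0.28, adjusted p = 0.00011). Of 9 mitochondrial proteases and chaperones, 1 was higher at 1 and at 4 h (Yme1l1), and 3 higher and 1 lower at 12 and at 24 h. Of the 3 tested HSF regulators (Hsf1, Hsf2 and Hsbp1), edgeR called 0 at each time against control, with Hsf2 and Hsbp1 at an unadjusted p under 0.05 at 12 and 24 h and Hsbp1 at 4 h. Hsf1, the main heat shock factor, was at 19.4 ± 1.47 CPM in controls and at 17.5 ± 0.437 CPM at 1 h and 20.5 ± 6.67 CPM at 4 h.

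With IL-4 and IL-13 few members were called, as were few of all genes tested. With IL-4, 2 of 48 tested members were higher and 0 lower (17 at an unadjusted p under 0.05), beside 4.38% and 3.25% of all genes, and with IL-13 also 2 higher and 0 lower (12 at an unadjusted p under 0.05), beside 5.61% and 4.49%. DESeq2 gave the same counts. Both comparisons use the same 3 controls, and in both the members called were Hspa8 and Hspd1. Hspa8 was at 1058, 1002 and 1155 CPM with IL-4 and 1141, 1138 and 1129.9 CPM with IL-13, all above the controls (833, 859 and 801 CPM), with changes of 0.35 (SE 0.08, adjusted p = 0.00057) and 0.43 (SE 0.08, adjusted p = 1.7e-05). Hspd1 was at 108, 110.0 and 131 CPM with IL-4 and 124, 121 and 116 CPM with IL-13, against 86.9, 81.4 and 82.8 CPM, with changes of 0.46 (SE 0.11, adjusted p = 0.0029) and 0.51 (SE 0.11, adjusted p = 0.00059). Both IL-4 calls were lost without IL-4 sample 3 (0.30, adjusted p = 0.014, for Hspa8 and 0.37, adjusted p = 0.047, for Hspd1), which left 0 members called, and the Hspd1 call was also lost without control 2 or 3 (0.44 and 0.45, adjusted p = 0.019 and 0.015).

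None of the 10 tested ER members was called with either cytokine, where few of all genes were called. Hspa5 was at 264, 273 and 292 CPM with IL-4 and 245, 256 and 281 CPM with IL-13, overlapping the controls, 0.05 (SE 0.09, adjusted p = 0.78) and -0.04 (SE 0.09, adjusted p = 0.84). Dnajb9 was at 39.7, 44.0 and 43.0 CPM with IL-13 and 25.7, 31.1 and 27.4 CPM with IL-4, 0.48 (SE 0.16, adjusted p = 0.029) against control with IL-13. Between IL-13 and IL-4, edgeR and DESeq2 called 0 of 48 members in either direction, 3 passed an unadjusted p of 0.05, and 0.0865% and 0.0216% of all genes were called. Of the lists, Pdia4 (an ER disulfide isomerase) was higher with both, 0.79 (SE 0.11, adjusted p = 3e-07) and 1.09 (SE 0.11, adjusted p = 1.4e-11), as was Cct5. With IL-13 also St13, Grpel1, Fkbp5 and Cct6a were called, and between IL-13 and IL-4 edgeR called 0 of the lists' genes, with 4 at an unadjusted p under 0.05.

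At the same labelled time of 12 h, IFN-LPS was set against IL-4. Antisense Rn45s was 0.0827% to 0.122% in the IFN-LPS libraries and 0.00996% to 0.0214% in the IL-4 libraries. A difference in library making therefore cannot be told apart from the stimulus. Here 21 of 49 tested members were higher and 4 lower with IFN-LPS, beside 22.1% and 20.6% of all genes, and under total-count scaling, which shifts all genes by -0.35, 13 were higher and 8 lower. Without Hspa1a and Hspa1b, 19 were higher. Hspa8 was higher, 1.42 (SE 0.09, adjusted p = 1.1e-15), as were Hsp90aa1, 1.48 (SE 0.12, adjusted p = 3.9e-13), Hspa5, 1.35 (SE 0.11, adjusted p = 3.5e-13), Dnajc1, 1.87 (SE 0.14, adjusted p = 1.9e-14), and Dnaja1, 1.53 (SE 0.19, adjusted p = 7.1e-08). From 3 counts over the IL-4 group to 101 over the IFN-LPS group, Hspa1a had a ratio of 36.5 (95% counting interval 12.1 to 180), and Hspa1b, from 2 to 82 counts, had 44.4 (11.9 to 373). Lower with IFN-LPS were Dnajc28, -2.05 (SE 0.40, adjusted p = 5.1e-05), Dnajc9, -1.39 (SE 0.30, adjusted p = 0.00018), Dnajb14, -1.04 (SE 0.22, adjusted p = 0.00011), and Dnajc25, -1.08 (SE 0.34, adjusted p = 0.0076). Dnajc25, Dnajc7 (0.50), Hspd1 (0.43) and Hsp90b1 (0.39) each lost the call without single samples: for Hsp90b1 without 12 h sample 1 or 2 or any IL-4 sample (0.27 to 0.40, adjusted p = 0.021 to 0.089), for Hspd1 without 12 h sample 1 or 2 or IL-4 sample 1 or 2 (0.36 to 0.40), for Dnajc7 without 12 h sample 3 or IL-4 sample 2 or 3 (0.35 to 0.49) and for Dnajc25 without 12 h sample 2 or 3 or IL-4 sample 1 or 3 (-1.14 to -0.88). Under total-count scaling Hsp90b1 was at 0.04, Hspd1 at 0.08 and Dnajc7 at 0.14, none called.

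In RAW264.7 cells, LPS for 4 h raised 7 and lowered 2 of 47 tested members, beside 15.1% and 12.8% of all genes. Under total-count scaling, which shifts all genes by -0.18, 3 were higher (Hspa5, Hspa8 and Dnajb5) and 9 lower, and DESeq2 called 4 and 1. Without RAW264.7 control 1, 4 were higher, and without control 2, 4 were lower. Hspa5 was at 1499 and 1416 CPM in the controls and 2269 and 2239 CPM after LPS, 0.67 (SE 0.06, adjusted p = 2.1e-25). Hspa8 went from 1682 and 1745 CPM to 2686 and 2842 CPM, 0.73 (SE 0.06, adjusted p = 1.8e-30). For both genes each LPS sample lay above each control. Dnajb5, the 1 of the 7 that passed the filter only through the LPS samples, went from 2.43 and 2.17 to 8.36 and 7.97 CPM. Dnaja2 went from 175 and 149 to 209 and 219.7 CPM, 0.44 (SE 0.09, adjusted p = 5.6e-06), which was 0.26 (adjusted p = 0.014) under total-count scaling. Dnajc9 fell, from 79.8 and 68.8 to 46.2 and 36.7 CPM, -0.81 (SE 0.14, adjusted p = 4.3e-08). The means of the cycling-cell markers before and after LPS were 134 and 62.1 CPM for Mki67, 204 and 145 CPM for Top2a, 136 and 133 CPM for Ccnb1 and 190 and 205 CPM for Cdk1, and their part in this change was not tested.

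Of the 9 calls in RAW264.7 cells, 4 rested on single samples. Dnajc1 (0.52), Dnajc5 (0.34) and Hspa4l (-0.81) were lost without 3 of the 4 samples in turn (control 1, control 2 or LPS sample 2 for Dnajc1 and Dnajc5, with adjusted p up to 0.36 and 0.23, and control 1 or either LPS sample for Hspa4l, with adjusted p up to 0.065) and with DESeq2. Hsp90ab1 (0.30) was lost without control 1 (0.27, adjusted p = 0.01, just over the threshold). Hsp90b1 was at 568 ± 46.5 and 562 ± 12.6 CPM, 0.02 (SE 0.07, adjusted p = 0.82), and Hspa1a had no count in either RAW264.7 group (limits of 0.532 and 0.556 CPM). Of the lists, 5 of 8 TRiC subunits and 5 of 13 ER folding genes were higher, beside 15.1% of all genes.

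Unstimulated RAW264.7 cells differed from control BMDMs in most members: 26 of 49 were higher and 15 lower, beside 32.9% and 34.7% of all genes (28 and 10 under total-count scaling, which shifts all genes by 0.28). Without Dnajc28 and Hspa2, which passed the filter only through control BMDMs, 13 were lower. The cells also differ in origin, medium and division, and the cycling-cell markers summed to 637 to 690.4 CPM in RAW264.7 controls against 74.8 to 92.3 CPM in control BMDMs; their part in these differences was not tested. Antisense Rn45s was 0.0199% and 0.0236% in the RAW264.7 controls and 0.0386% to 0.0543% in control BMDMs. A difference in library making thus cannot be told apart from cell kind. The median change of the members was 0.64, against -0.05 for all genes. Hspd1 had the largest rise over BMDMs, with 877 and 786 CPM in RAW264.7 cells against 86.9, 81.4 and 82.8 CPM, 3.28 (SE 0.10, adjusted p = 4.6e-69), a 9.73-fold higher level. Hspa5 was at 1499 and 1416 against 275, 275 and 242 CPM, 2.44 (SE 0.09, adjusted p = 7.5e-59).

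All 3 HSP90 members were higher in RAW264.7 cells, led by Hsp90aa1 at 429.8 and 362 against 88.0, 88.4 and 83.9 CPM, 2.16 (SE 0.10, adjusted p = 3e-45). So were 6 of 8 mitochondrial members. Dnajc2, 2.37 (SE 0.20, adjusted p = 4.7e-20), and its partner Hspa14, 1.87 (SE 0.17, adjusted p = 8.6e-21), were both higher, as were Hsph1, 2.34 (SE 0.17, adjusted p = 1.3e-27), and Dnajc9, 1.84 (SE 0.16, adjusted p = 4e-21). ER members split, with Hspa5, Hsp90b1, Dnajb11, Dnajc3 and Dnajc10 higher and Dnajb9, Dnajb12, Dnajb14 and Dnajc1 lower, Dnajb9 not under total-count scaling (-0.55, adjusted p = 0.011). Dnajb14 showed the largest of these lower levels, -2.02 (SE 0.23, adjusted p = 4.1e-15). Hsp90b1 was at 601 and 535 CPM in RAW264.7 cells, 1.71 (SE 0.09, adjusted p = 4.9e-39).

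Among the 8 tested class B members, 5 were lower and 1 (Dnajb11) was higher. Dnajb5 was at 2.43 and 2.17 CPM in RAW264.7 cells and 10.2, 13.0 and 12.3 CPM in BMDMs, -2.36 (SE 0.39, adjusted p = 2.2e-08), and Dnajb4 at 10.1 and 9.42 CPM against 19.8, 29.3 and 21.4 CPM, -1.29 (SE 0.24, adjusted p = 9.5e-07). With 4 counts in RAW264.7 controls and 66 in control BMDMs, Dnajc28 had a ratio of 0.0599 (95% counting interval 0.0159 to 0.161), and Hspa2, an HSP70 best known from testis, had 0.120 (0.0308 to 0.337) from 4 and 33 counts. Of the 23 tested DNAJC members, 12 were higher and 8 lower, among them Dnajc21 (1.56), which works in ribosome assembly, and Dnajc12 (-1.68), a cochaperone of aromatic amino acid hydroxylases. The higher call of Dnaja1, 0.62 (SE 0.20, adjusted p = 0.0047), was lost without control 2 of the BMDMs or control 1 of the RAW264.7 cells (0.52 and 0.39, adjusted p = 0.036 and 0.18) and with DESeq2 (adjusted p = 0.037), and the lower call of Dnajc13, -0.48 (SE 0.10, adjusted p = 1.9e-05), without RAW264.7 control 2 (-0.34, adjusted p = 0.016) and under total-count scaling (-0.19, adjusted p = 0.084). Of the lists, all 8 TRiC subunits, 9 of 14 HSP90 cochaperones and 10 of 13 ER folding genes were higher, and Hsf2 and Hsbp1 were lower. Of all genes, 32.9% were higher and 34.7% lower.

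**Figure D5:**
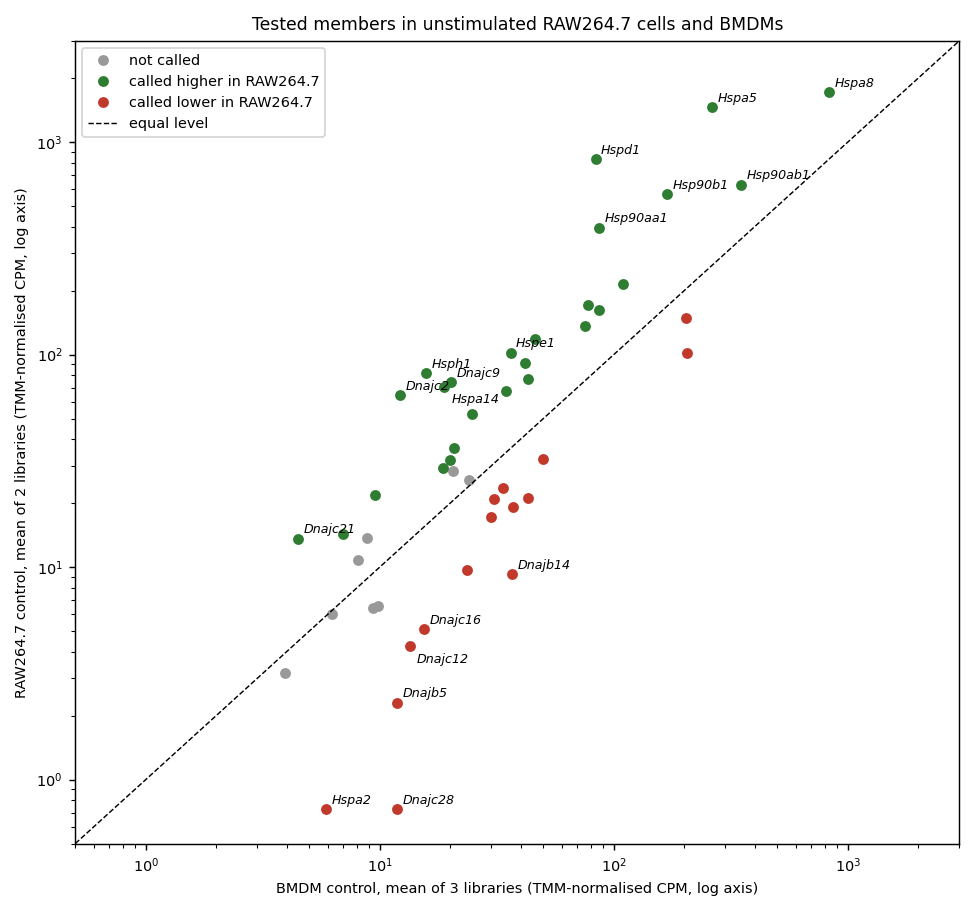
Mean TMM-normalised CPM (log axes) of tested members in control BMDMs (3 samples, x axis) and RAW264.7 controls (2 samples, y axis); the dashed line marks equal levels and colour marks members called higher (26, green) or lower (15, red) in RAW264.7 cells. Hspd1 lies farthest above the line among abundant members, and Dnajb5, Hspa2 and Dnajc28 lie farthest below it. Hspa2 and Dnajc28 passed the filter only through control BMDMs, and without them 13 were lower.

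The 4 h responses of both cell kinds were compared by an interaction term, with the limit that RAW264.7 cells had LPS alone and BMDMs had IFN-γ and LPS. The RAW264.7 response was above the BMDM response for 4 of 49 members and below it for 12, beside 11.1% and 16.4% of all genes. Under total-count scaling, which shifts all genes by 0.43, the split was 10 and 8, and without IFN-LPS 4 h sample 1 or RAW264.7 control 2 only 2 members were above. Hspa4l showed the largest difference of a member: it went from 33.7 ± 1.01 to 177 ± 2.08 CPM in BMDMs and from 23.7 ± 3.78 to 13.1 ± 1.07 CPM in RAW264.7 cells, a difference in log2 change of -3.23 (SE 0.26, adjusted p = 3.6e-23). For Hspa5, which rose in both, it was -1.70 (SE 0.12, adjusted p = 1.7e-26), with each RAW264.7 control above each 4 h BMDM sample. Hspa8 rose in both, with a difference of -0.20 (SE 0.12, adjusted p = 0.19) that did not pass, and Dnajb5 had a difference of -0.09 (SE 0.69, adjusted p = 0.97). The ER folding list had 7 of 13 genes with a smaller response in RAW264.7 cells and none with a larger one.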

How the data were processed

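RNA-seq was analysed for 25 samples in 9 groups. Per the labels, the authors made the files with CASAVA 1.8.2, Trimmomatic 0.33 and STAR 2.5.1 on mm10 from directional libraries, and named DESeq2 for testing; the annotation release was not given in the sources used here. The deposited values are raw STAR counts per gene of uniquely mapped reads, and the sense-strand column was used. The row for reads outside genes held 62.7% to 69.1% of uniquely mapped reads and was left out, as was Rn45s. The labels give polyA RNA, whereas the study's methods describe depletion of ribosomal RNA.

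Gene positions come from GENCODE M21 (GRCm38). Counts were tested with edgeR 4.0.16 in R 4.3.3 (filterByExpr, TMM, robust quasi-likelihood F test) in 5 fits: the 15 time-course samples (9568 genes), the controls with IL-4 and IL-13 (9252), the RAW264.7 samples (9406), both 4 h responses (10269) and the 12 h stimuli (9380). P-values were adjusted over all genes of a fit by Benjamini-Hochberg, and SE is the log2 change over the root of F. A gene was called at an adjusted p of at most 0.01. Ratios of low counts have 95% exact counting intervals, and limits for 0 use 3 counts; both cover counting error only. In simulated counts with 100 genes changed at a log2 size of 1, 79 were recovered for the 4 h comparison (9291 genes), 75 for IL-4 (9210) and 63 for RAW264.7 LPS (9381). The simulated spread (dispersion) was fixed above the common dispersions of these fits, 0.0068, 0.00534 and 0.00235. Only well-counted genes were changed, so these rates do not give the power for the members, least of all for those with low counts. All 23 replicate pairs differed by more than counting noise (chi-square per degree of freedom 1.30 to 4.53).

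Named genes were 24 members fixed by role and, per comparison, the 10 largest and 10 smallest changes among called members with a group mean of at least 10 CPM. Members, lists and rules were chosen with earlier results of these data known. Alternatives were DESeq2 1.42.0, the log2 cutoffs of the study's methods (1.5, 0.7 and 2), Rn45s kept, unstranded counts, no low-count filter, total-count scaling, DESeq2 size factors, a replicate block, single samples left out, and fits of only the groups compared.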

Additional observations from a re-analysis of the deposited data

Results flagged for a closer look

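The 4 h response in RAW264.7 cells differed from that in BMDMs for 16 members by the interaction term (edgeR, adjusted p of at most 0.01), and this difference between the cell kinds is what marked them for a closer look. RAW264.7 cells received LPS alone and BMDMs IFN-γ and LPS, so cell kind and treatment cannot be told apart. The values below are the log2 change in RAW264.7 cells minus that in BMDMs.

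The response of the ER members Hspa5, Hsp90b1 and Dnajb11 was smaller in RAW264.7 cells, with differences of -1.70, -0.92 and -0.80. Hsp90b1 had changed by 0.85 in BMDMs and 0.02 in RAW264.7 cells. In the cytosol, the differences were -3.23 for Hspa4l, -0.95 for Hsp90aa1, -2.08 for Dnaja1, -1.88 for Dnaja2 and -1.57 for Dnajb6. Dnaja1 had changed by 1.52 in BMDMs and by -0.48 (adjusted p = 0.034) in RAW264.7 cells.

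Among DNAJC members the difference was negative for Dnajc13 (-0.96), Dnajc2 (-1.21), Dnajc7 (-0.84) and Dnajc8 (-0.86). The difference was positive, with a fall in BMDMs, for Dnajc18 (1.57), Dnajc27 (1.77), Dnajc5 (0.84) and Dnajc9 (1.35). Dnajc9 fell in RAW264.7 cells as well, from 79.8 and 68.8 to 46.2 and 36.7 CPM, so its positive difference means a smaller fall there than in BMDMs. Dnajc27 lost the call without 6 of the 10 samples in turn (1.39 to 1.76, adjusted p = 0.016 to 0.051) and with DESeq2 (adjusted p = 0.046). Dnajc9 lost it without IFN-LPS 4 h sample 1, RAW264.7 control 2 or LPS sample 1 (1.11 to 1.23) and with DESeq2 (adjusted p = 0.015), and Dnajc2 without control 3 of the BMDMs or IFN-LPS 4 h sample 3 (-1.03 to -0.90) and with DESeq2 (adjusted p = 0.012). Under total-count scaling Dnajb11 (-0.36), Dnajc2 (-0.78), Dnajc7 (-0.40) and Dnajc8 (-0.42) were not called.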

How the results depend on the processing

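Over the 175 calls of named members, 3374 of 3521 alternative values kept the direction and the call, 145 kept the direction only, and 2 turned: under total-count scaling, Dnajc7 was at -0.035 and Hsp90ab1 at -0.071 at 4 h of IFN-LPS. The counts of called members moved with the log2 cutoffs, which by construction remove calls. These left 3 higher and 1 lower at 1 h, 6 and 4 at 4 h, 8 higher at 12 h, 2 higher at 24 h, 3 and 2 for 24 h against 4 h, 4 and 1 for IFN-LPS against IL-4, 0 higher with IL-4 and with IL-13, 0 and 0 with RAW264.7 LPS, 5 and 4 between controls, and 0 and 2 for the interaction. With DESeq2, 1 member was lower at 1 h, 5 at 4 h, 4 higher and 1 lower with RAW264.7 LPS, and 2 higher in the interaction. Without the low-count filter, 1 was lower at 1 h. Total-count scaling gave 8 higher and 16 lower at 4 h, 8 lower at 12 h and at 24 h, 25 higher for 24 h against 4 h, 13 and 8 for IFN-LPS against IL-4, 3 and 9 with RAW264.7 LPS, and 10 higher in the interaction. The cause of the changes with DESeq2, the filter and the scaling was not tested.

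With single samples left out in turn, 14 to 17 members were higher and 1 to 2 lower at 1 h, 12 to 16 and 5 to 8 at 4 h (5 without control 2 or 4 h sample 3), 20 to 22 and 4 to 5 at 12 h, 15 to 20 and 3 to 3 at 24 h, 10 to 14 and 7 to 8 for 24 h against 4 h, 17 to 21 and 3 to 4 for IFN-LPS against IL-4, 0 to 3 higher with IL-4 (0 without IL-4 sample 3, 1 without control 2 or 3), 2 to 2 and 0 to 1 with IL-13 (1 without IL-13 sample 3), 4 to 7 and 1 to 4 with RAW264.7 LPS, 23 to 26 and 13 to 16 between controls, and 2 to 4 and 11 to 12 in the interaction. Where 1 sample of a RAW264.7 group remained, its spread was taken from the other groups.

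Groups share replicate numbers. Deviations of samples that share one had a mean r of -0.02 to 0.02 over the 5 fits. Single pairs ran from -0.070 to 0.176 in the time course. With 2 or 3 samples per group, these values cannot show whether the numbers pair the samples. With the replicate number as a block, 17 members were higher and 2 lower at 1 h, 16 and 8 at 4 h, 22 and 4 at 12 h, 20 and 3 at 24 h, 3 and 0 with IL-4, 2 and 0 with IL-13, 7 and 2 with RAW264.7 LPS, 25 and 15 between controls, and 3 and 12 in the interaction; the block ended the calls of Dnajc25 and Hsp90b1 for IFN-LPS against IL-4 and of Dnajc27 in the interaction. With at most 2532496 counts per sample after Rn45s was left out, members under about 10 CPM had few counts, and their changes are uncertain.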

Other observations

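Small heat shock proteins hold unfolded proteins without ATP, and in these cells their RNA was scarce. Of the 8 Hspb symbols, only Hspb11, which despite its symbol belongs to intraflagellar transport, had enough counts to be tested. Hspb1 was at 2.68, 4.34 and 7.48 CPM in the control BMDMs, 3.92, 1.29 and 3.54 CPM at 1 h of IFN-LPS, 4.43, 4.66 and 3.28 CPM at 4 h, 3.46, 1.95 and 1.77 CPM at 12 h and 1.47, 1.99 and 2.11 CPM at 24 h. It was at 4.71, 3.33 and 1.79 CPM with IL-4 and 4.03, 2.05 and 2.53 CPM with IL-13, and at 0 in all RAW264.7 samples. Hspb8, a partner of Bag3 in autophagy, was at 0.719 ± 0.623 CPM in the controls. Of the windows of 101 bases in Hspb1, 42.5% occur in other genes. These levels were below the count filter and were not tested.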
